A study of Mus musculus with 6 samples.

Results

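The AP-1 family genes Jun, Junb, Jund, Fos, Fosb, Fosl2, Atf3, Batf, Batf3 and Maff were examined in MC3T3-E1 cells, a mouse line of pre-osteoblasts from the calvaria. These 10 genes, of 22180 genes with a single-symbol probe set, were taken by symbol, and each was read from its brightest probe set over the 6 arrays. Confluent cells were cultured for 14 days with ascorbic acid at 50 µg/ml and β-glycerophosphate at 10 mM, which both groups received to induce osteoblast differentiation. The medium also held NU7441 at 1 µM in 3 samples, and its solvent DMSO in the other 3. NU7441 inhibits the catalytic subunit of the DNA-dependent protein kinase, and the series concerns the phosphorylation of alphaNAC by that kinase. The cells are 1 line in culture, and nothing in the labels tells if replicates were separate cultures. The p-values therefore cover only the spread among these 6 samples, which can be technical, and precision is limited by their number.

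AP-1 is a transcription factor built of pairs of basic leucine zipper proteins. A Jun protein pairs with itself or with a Fos, ATF or BATF protein, and the pair binds short palindromic DNA sites. Small MAF proteins pair with Fos and with other zipper proteins rather than with Jun. Many of these genes are immediate early genes, switched on within minutes by growth factors, stress or mechanical load through MAP kinases. In osteoblasts, AP-1 acts in proliferation and in the transcription of matrix genes, and alphaNAC, encoded by Naca, is known as a coactivator of c-Jun. The comparison asks whether culture with NU7441 was accompanied by a different level of Jun and of the other family genes. The arrays do not measure the activity of the kinase.

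The promoters of 4 members are printed because Jun and Atf3 had the largest differences below, Fosl2 was the other gene whose groups did not overlap, and Fos had the smallest difference. All 10 members matched the RefSeq promoter table (GRCm38.p6), 9 of them with 1 start and Maff with 3. Each sequence is the 250 bases before the annotated start, 5′ to 3′ on the gene's strand, with motif matches in capitals.
Jun, chr4:95052223-95052472, minus strand: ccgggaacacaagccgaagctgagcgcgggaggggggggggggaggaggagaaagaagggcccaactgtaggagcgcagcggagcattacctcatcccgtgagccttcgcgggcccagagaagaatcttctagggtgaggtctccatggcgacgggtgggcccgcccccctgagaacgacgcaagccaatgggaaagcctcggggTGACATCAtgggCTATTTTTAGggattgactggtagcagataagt
Atf3, chr1:191183334-191183583, minus strand: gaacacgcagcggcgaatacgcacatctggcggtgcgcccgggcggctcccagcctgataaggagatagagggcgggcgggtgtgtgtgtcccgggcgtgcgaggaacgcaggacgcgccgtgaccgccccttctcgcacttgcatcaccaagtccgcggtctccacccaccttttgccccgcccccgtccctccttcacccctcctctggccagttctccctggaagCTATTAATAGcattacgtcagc
Fosl2, chr5:32136222-32136471, plus strand: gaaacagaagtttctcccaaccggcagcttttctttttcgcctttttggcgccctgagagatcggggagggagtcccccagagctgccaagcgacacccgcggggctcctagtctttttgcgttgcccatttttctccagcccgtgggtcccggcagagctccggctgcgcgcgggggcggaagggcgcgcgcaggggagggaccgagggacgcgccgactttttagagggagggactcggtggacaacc
Fos, chr12:85473640-85473889, plus strand: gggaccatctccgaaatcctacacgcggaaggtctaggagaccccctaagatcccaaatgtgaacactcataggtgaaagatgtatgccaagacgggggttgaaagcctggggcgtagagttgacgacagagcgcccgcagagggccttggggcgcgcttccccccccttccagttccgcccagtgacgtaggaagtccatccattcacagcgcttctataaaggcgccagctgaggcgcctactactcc
The motifs searched on both strands were TGACTCA (the consensus AP-1 site), TGACGTCA (the cAMP response element), TGACATCA (the variant known from the Jun promoter), the CArG box and the MEF2 box. In the Jun promoter, TGACATCA lay 45 to 38 bases before the start and a MEF2 box 33 to 24 bases before it, with no overlap between them. Of 32851 promoter windows of this length, 2.93% held TGACATCA and 2.92% a MEF2 box. A MEF2 box also lay 22 to 13 bases before the Atf3 start. Maff held TGACATCA before one of its starts and TGACGTCA, found in 1.55% of windows, before another. TGACTCA, in 4.46% of windows, and the CArG box, in 1.47%, had no match in the windows of the 10 genes. The other 7 members had no match to any of the 5 motifs, which says only that these letters are not in these windows.

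The 6 arrays had medians between 6.38 and 6.42 on the log2 scale. Deviations from the group means correlated weakly between same-numbered samples over all genes, at 0.149, 0.169 and 0.339 for numbers 1 to 3. Osteoblast markers, with 8 of 8 measured, had mean levels of 10.14 to 11.01 in DMSO and 10.60 to 11.31 in NU7441, and all 8 were higher on average with NU7441. With group as the only term, limma called 0 of these 8, and 0% of all genes. At an unadjusted p under 0.05, 1 of them was higher, where 3.49% of all genes were. At the setting that called Jun below, limma called 4 of these 8 higher, where 0.176% of all genes were. That setting, with replicate block, trend and robust prior, had been added after the data were seen. Adipocyte markers (4 of 4 measured) had mean levels of 5.81 to 5.88 in DMSO and 5.53 to 5.72 in NU7441. Of them Fabp4 differed by -0.99 (SE 0.19) and did not pass with group as the only term (limma adjusted p = 0.598). It was called lower with block, trend and robust prior (limma adjusted p = 0.0211), where 0.275% of all genes were. Its mean of 4.87 in NU7441 lay under the arrays' lower quartiles, so the size of its difference may not reflect transcript. Of the 4 adipocyte markers, 2 were below 0 and 2 above, with a median difference of -0.01. Chondrocyte markers ranged from 6.33 to 6.63 in DMSO and 6.41 to 6.64 in NU7441, smooth muscle markers from 8.68 to 8.95 and 8.80 to 8.94, and endothelial markers from 5.97 to 6.11 and 5.90 to 6.19. The part of these markers in the results below was not tested. Of the blood cell markers, 5 of 6 were measured, with mean levels of 5.92 to 5.96 in DMSO and 5.89 to 5.90 in NU7441. The leukocyte marker Ptprc, the lowest of the 5, was at 4.59 in both groups, below the lower quartiles of the arrays, 5.11 to 5.16. The highest was Cd68, with a mean of 7.81 over the 6 arrays and a difference of -0.23 (SE 0.19). It was lower with NU7441 in all 3 same-numbered samples, as were 16.6% of all genes. Prkdc, which encodes the catalytic subunit, differed by 0.04 (SE 0.06) and Naca by 0.02 (SE 0.06), in log2 units, NU7441 minus DMSO as in all differences below.

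Jun was lower in every NU7441 sample than in every DMSO sample, with a mean signal ratio of 0.733. The arrays of DMSO 1 to 3 gave log2 signals of 10.297, 10.305 and 10.107, and those of NU7441 1 to 3 gave 9.925, 9.694 and 9.749. The means were 10.24 ± 0.11 in DMSO and 9.79 ± 0.12 in NU7441 (SD, n = 3 each). The difference was -0.45 (SE 0.09, 95% interval -0.66 to -0.23), which gives the ratio of 0.733 an interval from 0.632 to 0.852. Its unadjusted p of 0.00169 in limma ranked it number 57 of 22180 genes. With Benjamini-Hochberg adjustment over all genes, limma gave an adjusted p of 0.598, which did not pass the threshold of 0.05. Of all genes, 0% passed that threshold, and 1506 genes, or 6.79%, had an unadjusted p under 0.05. Leaving out any 1 array gave differences for Jun between -0.51 and -0.40. With same-numbered samples as a block, an intensity trend and a robust prior, limma called Jun lower at an adjusted p of 0.0291. Of all genes, 0.275% were called lower and 0.176% higher at that setting, which earlier work on these data had added after seeing them. Over the 16 alternatives the adjusted p of Jun ran from 0.0291 to 0.912.

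**Figure D1:**
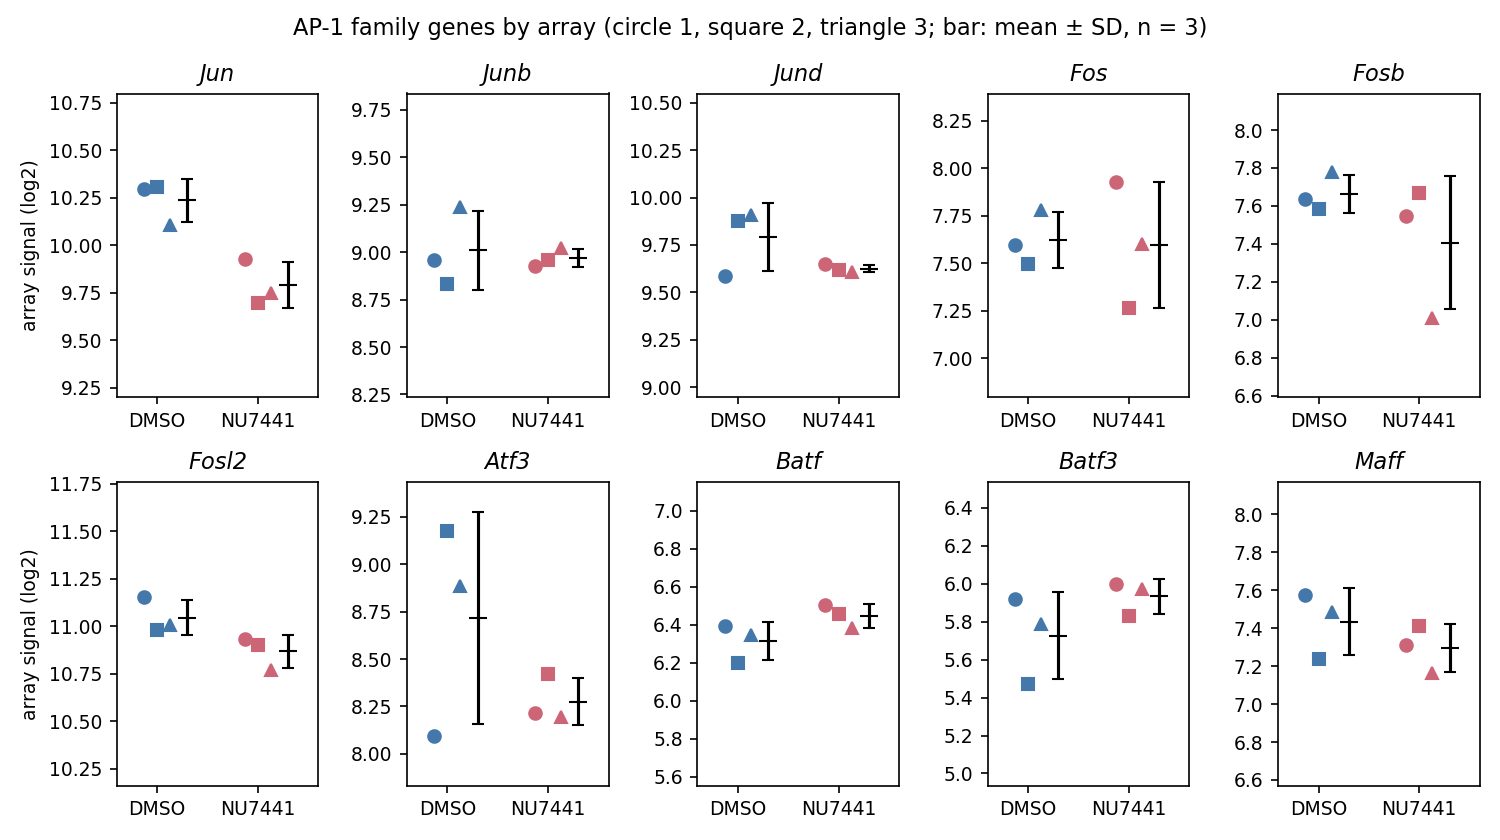
Array signal (log2, y axis, each panel spanning the same range) of the 10 AP-1 family genes in DMSO and NU7441, with 1 point per array, marked by replicate number, and bars for the mean ± SD (n = 3). The groups lie apart for Jun and Fosl2 and overlap for the other 8 genes, and Atf3 in DMSO 1 lies at 8.09, away from 9.17 and 8.88.

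The other Jun proteins, JunB and JunD, can take the place of c-Jun in the same pairs and often oppose it in growth control. Junb gave 8.96, 8.83 and 9.24 in DMSO 1 to 3 and 8.93, 8.96 and 9.02 in NU7441 1 to 3. All 3 NU7441 values lay within the range of the DMSO values. The difference was -0.04 (SE 0.11, 95% interval -0.30 to 0.22), and limma's adjusted p was 0.959. Without DMSO 3 it was 0.075 and without DMSO 2 it was -0.13. Jund gave 9.59, 9.88 and 9.91 in DMSO and 9.65, 9.62 and 9.61 in NU7441. The 3 NU7441 samples were close together, above DMSO 1 and below DMSO 2 and 3. The difference was -0.17 (SE 0.10, 95% interval -0.39 to 0.06), with a limma adjusted p of 0.792, and it was -0.27 without DMSO 1 and -0.11 without DMSO 3. Jund has another single-symbol probe set, which went the opposite way. Its mean went from 7.301 in DMSO to 7.446 in NU7441, higher by 0.14 (SE 0.08), so that the mean of both probe sets differed by -0.01. The direction for Jund thus depends on the probe set.

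Fos proteins cannot pair with themselves and bind DNA as partners of a Jun protein. Fos, the classic immediate early gene, gave 7.59, 7.49 and 7.78 in DMSO and 7.93, 7.26 and 7.60 in NU7441. The highest and the lowest value both came from NU7441 samples. The difference was -0.03 (SE 0.17, 95% interval -0.42 to 0.37), with a limma adjusted p of 0.980. It was 0.05 without DMSO 3, 0.14 without NU7441 2 and -0.19 without NU7441 1. Fosb, which also encodes the stable short form ΔFosB known to promote bone formation in transgenic mice, gave 7.63, 7.58 and 7.78 in DMSO and 7.55, 7.67 and 7.01 in NU7441. NU7441 3 was low, and the other NU7441 samples lay close to the DMSO samples. The difference of -0.26 (SE 0.17, 95% interval -0.65 to 0.14) became -0.06 without NU7441 3 and -0.39 without NU7441 2.

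Fosl2 encodes Fra-2, the Fos protein known for driving osteoblast differentiation and collagen and osteocalcin transcription. It gave 11.15, 10.98 and 11.01 in DMSO and 10.93, 10.90 and 10.77 in NU7441. Every NU7441 value was below every DMSO value, though NU7441 1 and DMSO 2 were close. The difference was -0.18 (SE 0.08, 95% interval -0.37 to 0.01). Limma gave it an unadjusted p of 0.0606 and an adjusted p of 0.755, so it did not pass. Jun and Fosl2 were the only 2 of the 10 members whose groups lay apart with NU7441 lower, and none lay apart with NU7441 higher. Over all genes these shares were 6.64% lower and 6.13% higher.

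Atf3, a stress-induced partner of Jun proteins that often represses, had a difference near that of Jun but with a wide spread. It gave 8.09, 9.17 and 8.88 in DMSO and 8.22, 8.42 and 8.19 in NU7441. DMSO 1 lay below all 3 NU7441 samples, while DMSO 2 and 3 lay above them. The difference was -0.44 (SE 0.25, 95% interval -1.04 to 0.16), with a limma adjusted p of 0.792. It was -0.75 without DMSO 1 and -0.21 without DMSO 2. Maff, which encodes a small MAF protein without an activation domain, gave 7.58, 7.24 and 7.49 in DMSO and 7.31, 7.41 and 7.16 in NU7441. Its groups overlapped, and the difference was -0.14 (SE 0.11, 95% interval -0.40 to 0.12), which was -0.07 without DMSO 1 and -0.24 without DMSO 2.

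Batf and Batf3, known best from lymphocytes and dendritic cells, were the only 2 members higher on average with NU7441. Batf gave 6.39, 6.20 and 6.35 in DMSO and 6.51, 6.46 and 6.38 in NU7441. NU7441 3 lay just below DMSO 1, and the difference was 0.13 (SE 0.08, 95% interval -0.05 to 0.32). Batf3 gave 5.92, 5.47 and 5.79 in DMSO and 6.00, 5.83 and 5.97 in NU7441. DMSO 2 was low, and the difference of 0.21 (SE 0.12, 95% interval -0.08 to 0.49) became 0.08 without that sample. That of Batf also became 0.08 without it. Limma's adjusted p was 0.791 for Batf and 0.797 for Batf3. Both genes had signals near or below the array medians, and their signal above background was not examined, so these differences may not bound a change in transcript.

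Within same-numbered samples, the differences of Jun were -0.37, -0.61 and -0.36 in numbers 1 to 3. Fosl2 was the other member below DMSO in all 3 numbers, at -0.22, -0.08 and -0.24, where 16.6% of all genes were below in all 3. Batf at 0.11, 0.26 and 0.03 and Batf3 at 0.08, 0.36 and 0.18 were above in all 3, as were 16% of all genes. Atf3 was higher with NU7441 in number 1, at 0.12, and lower in numbers 2 and 3, at -0.75 and -0.69. Fos went likewise, at 0.33, -0.23 and -0.18. With the replicate number as a block, limma called none of the 10 members. The adjusted p of Jun was then 0.396, and unadjusted p-values were 0.00244 for Jun, 0.0449 for Fosl2 and 0.0463 for Batf3. Over all genes at that setting, 4.66% had an unadjusted p under 0.05 and were lower, and 4.71% higher.

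**Figure D2:**
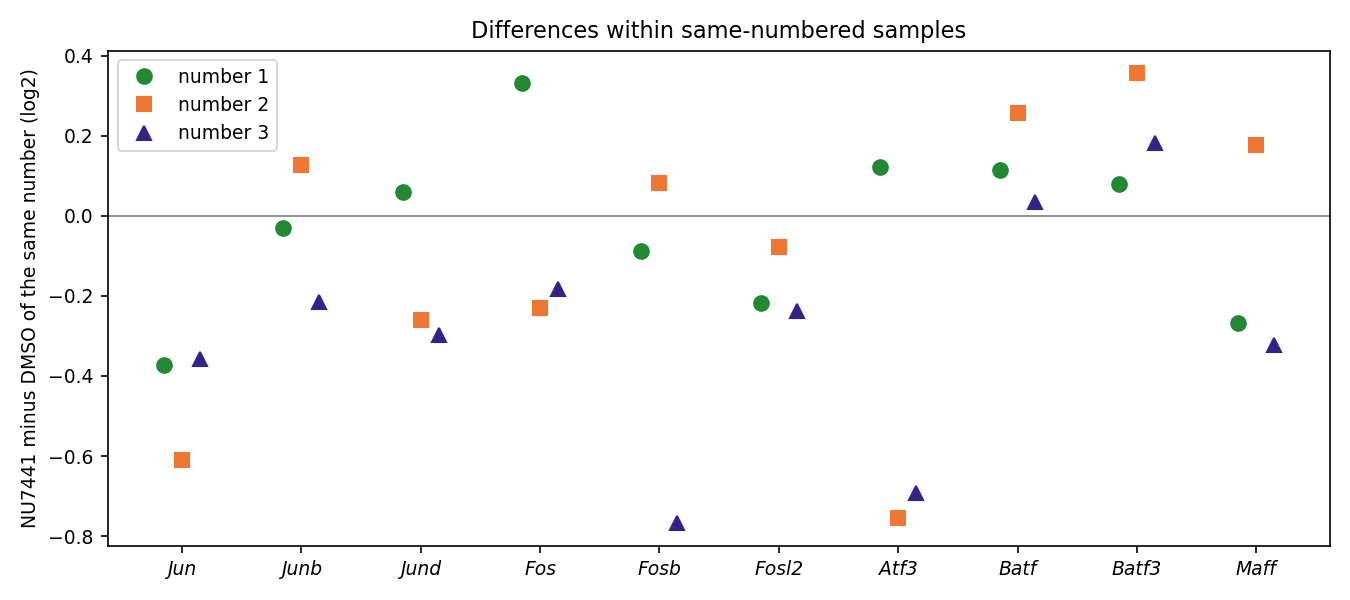
NU7441 minus DMSO (log2, y axis) within each of the 3 replicate numbers for the 10 genes (x axis), with 1 point per number. Jun has 3 points between -0.61 and -0.36, whereas those of Atf3 run from -0.75 to 0.12 and those of Fosb from -0.77 to 0.08.

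Whether the difference of Jun was unlike that of a family member was tested on the per-array log2 ratio of Jun to that gene, in 9 comparisons. An exact permutation test of 3 against 3 arrays, two-sided, cannot go below 0.1, so none could pass. The difference of Jun minus that of Batf was -0.58 (SE 0.11, 95% interval -0.90 to -0.27). Against Batf3 it was -0.65 (SE 0.17, interval -1.12 to -0.19). Against Fosl2 it was -0.27 (SE 0.09, interval -0.53 to -0.01), and against Maff -0.31 (SE 0.17, interval -0.79 to 0.17). In these 4 comparisons the ratios of the groups did not overlap (exact permutation p = 0.1, adjusted p = 0.225 over the 9). With quantile normalization those against Maff overlapped (exact permutation p = 0.3). The groups of Jun alone already lay apart, and no share over all genes was computed for such ratios. The values were -0.41 (interval -0.97 to 0.16) against Junb, -0.28 (interval -0.72 to 0.16) against Jund and -0.42 (interval -0.96 to 0.12) against Fos, each with an exact p of 0.2 and an adjusted p of 0.257. Against Fosb the value was -0.19 (interval -0.85 to 0.47, exact p = 0.7). Leaving out 1 array moved it to between -0.37, without NU7441 3, and -0.01, without NU7441 2. The value against Jund became -0.44 with the mean of both its probe sets (exact permutation p = 0.1) and -0.15 without DMSO 1, and that against Maff -0.18 without DMSO 2. Against Atf3 it was -0.01 (interval -1.02 to 1.01, exact p = 1), an interval too wide to tell whether the genes differed. Within same-numbered samples the ratio of Jun was lower with NU7441 in 3 of 3 numbers against 7 genes, in 2 against Fosb and in 1 against Atf3. Over the 3 numbers an exact sign-flip test cannot go below 0.25, the value it gave for those 7 genes.

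**Figure D3:**
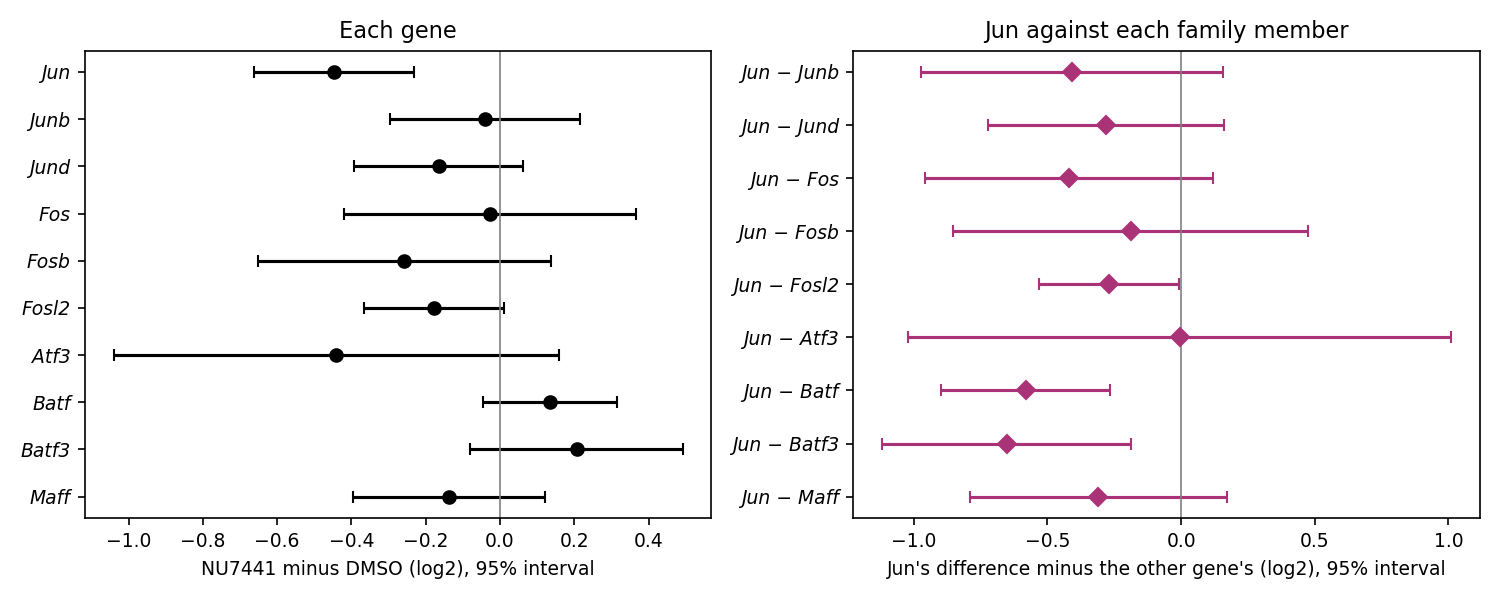
Left, the log2 difference NU7441 minus DMSO of each gene with its 95% interval from limma. Right, the difference of Jun minus that of each other gene, with the 95% interval from the pooled spread of the arrays (n = 3 per group). No interval is adjusted for the number of genes or takes same-numbered samples as pairs. Jun is the only gene on the left whose interval does not reach 0, where 6.79% of all genes had an unadjusted limma p under 0.05. On the right the intervals against Fosl2, Batf and Batf3 do not reach 0, but none of these comparisons passed (exact permutation p = 0.1, adjusted p = 0.225).

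Of the 10 members, 8 had a difference below 0 and 2 above, with a median of -0.15, whereas 48.7% of all genes were below 0 and their median was 0.00. Leaving out 1 array gave 6 to 8 members below 0, the 6 being without DMSO 3, and medians between -0.18 and -0.07. The smallest of these medians in size was without NU7441 3, and without DMSO 1 the median was -0.10. The other partners of AP-1, namely the remaining ATF, MAF, BATF and JDP genes, had 9 of 11 measured, of which 5 were below 0 and 4 above, with a median of -0.01. In limma 0 passed over all genes, and Mafg was the 1 of 9 with an unadjusted p under 0.05, where the share over all genes was 6.79%. Mafg, a small MAF protein like Maff, gave 8.71, 8.73 and 8.71 with DMSO and 8.56, 8.56 and 8.54 with NU7441. The difference was -0.16 (SE 0.06, adjusted p = 0.706 in limma). Its groups lay apart with little spread within either. Nrl, a MAF factor of photoreceptors, was the 1 gene whose groups lay apart with NU7441 higher, at 0.09 (SE 0.07), where 6.64% of all genes lay apart lower and 6.13% higher. Jdp2, a repressive partner of Jun, differed by -0.18 (SE 0.16).

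Upstream of the family, 15 of 19 listed MAP kinase pathway genes were measured, with 7 below 0, 8 above and a median of 0.00. In limma 0 passed over all genes. At an unadjusted p under 0.05 there were 3, each of them lower, where the share over all genes was 3.3%. That count was 1 when any single array was left out, with the replicate block and with quantile normalization. It was 3 with median centring and with block, trend and robust prior together. Map2k1, the kinase MEK1, differed by -0.24 (SE 0.08). Dusp10, a phosphatase of JNK and p38, differed by -0.21 (SE 0.09) and Rps6ka3, the kinase RSK2, by -0.16 (SE 0.07). Limma's adjusted p was 0.704, 0.726 and 0.733 for them in that order. The groups lay apart with NU7441 lower in these 3 and in Dusp16, 4 of 15, where 6.64% of all genes did, and in 0 with NU7441 higher. Of the transcription factors that act at the Jun and Fos promoters, 11 of 12 were measured, with 7 below 0 and 4 above. In limma 0 of them had an unadjusted p under 0.05, where the share over all genes was 6.79%. Srf, which binds CArG boxes, differed by -0.10 (SE 0.07), Creb1, which binds cAMP response elements, by 0.07 (SE 0.06), and Elk4, a partner of Srf, by -0.07 (SE 0.07). Mef2c, a MEF2 factor picked out after its values were seen, differed by 0.52 (SE 0.58), with values from 7.06 to 8.96 in DMSO and from 7.73 to 9.35 in NU7441. Within same-numbered samples Mef2c was higher with NU7441 in all 3, at 0.30, 0.88 and 0.39, as were 16% of all genes. With the replicate block, limma gave it an unadjusted p of 0.0106 and an adjusted p of 0.487.

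Coregulators and turnover factors of AP-1 proteins had 10 of 10 measured, of which 7 were below 0 and 3 above, with a median of -0.03, and none passed in limma. Cops5, also called JAB1 and known to bind c-Jun, gave 9.80, 9.72 and 9.79 in DMSO and 9.60, 9.59 and 9.57 in NU7441. The groups lay apart, with a difference of -0.18 (SE 0.06, adjusted p = 0.698 in limma). Cops5 was the 1 of 10 whose groups did, where 6.64% of all genes lay apart lower and 6.13% higher. Det1, part of the ubiquitin ligase that degrades c-Jun, differed by -0.22 (SE 0.11) and Fbxw7, which also targets c-Jun, by 0.18 (SE 0.09).

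Of 25 known AP-1 target genes 23 were measured, of which 17 had a difference below 0 and 6 above, with a median of -0.08. Leaving out 1 array gave 14 to 18 below 0 and medians between -0.16, without NU7441 1, and -0.07. In limma 0 passed over all genes. At an unadjusted p under 0.05, 5 were lower, where 3.3% of all genes were, and 1 was higher, where 3.49% were. Without NU7441 3 the 5 became 2, and without DMSO 2 they became 3. With the replicate block 7 were lower, where 4.66% of all genes were, and 2 higher, where 4.71% were. The growth factor gene Hbegf gave 7.57, 7.71 and 7.43 in DMSO and 7.22, 7.27 and 7.15 with NU7441, which differ by -0.36 (SE 0.09, adjusted p = 0.643 in limma). The chemokine gene Ccl2 gave 9.49, 9.83 and 9.25 in DMSO and 8.94, 9.03 and 8.91 with NU7441, which differ by -0.56 (SE 0.14, adjusted p = 0.643 in limma). In both genes the groups lay apart. Of the 23 targets, 4 lay apart with NU7441 lower, where 6.64% of all genes did. With NU7441 higher 1 lay apart, where 6.13% of all genes did. Ptgs2, the inducible cyclooxygenase, gave 10.17, 10.64 and 10.62 in DMSO and 9.503, 10.294 and 9.140 in NU7441, with overlapping groups and a difference of -0.83 (SE 0.29). The remaining genes under 0.05, picked out after their values were seen, were Hmox1 at -0.67 and Il6 at -0.41, and Tgfb1 at 0.24 was the one that was higher. Il6 had means of 4.42 in DMSO and 4.02 in NU7441, under the arrays' lower quartiles, so that its difference may not reflect transcript. At the setting that called Jun, with the block, trend and robust prior, 2 of 23 targets were called lower, where 0.275% of all genes were, and none higher, where 0.176% were: Ccl2 at an adjusted p of 0.0434 and Hmox1 at 0.0157 in limma. The collagenase Mmp13, a classic AP-1 target in bone, differed by -0.01 (SE 0.29). The largest rise of the targets was that of Bglap, at 0.64 (SE 0.33, unadjusted p = 0.0890 in limma). It was higher in all 3 same-numbered samples, as were 16% of all genes, and is also one of the osteoblast markers above.

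Immediate early genes outside AP-1 had 18 of 18 measured, with 13 below 0, 5 above and a median of -0.01. Limma gave 0 of them an unadjusted p under 0.05, where the share over all genes was 6.79%. With the replicate block 2 were lower at that threshold, where 4.66% of all genes were, and 0 higher, where 4.71% were. Ier3, an early response gene, differed by -0.24 (SE 0.14), Ier2 by -0.18 (SE 0.14) and the matricellular gene Ccn1 by -0.11 (SE 0.09).

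**Figure D4:**
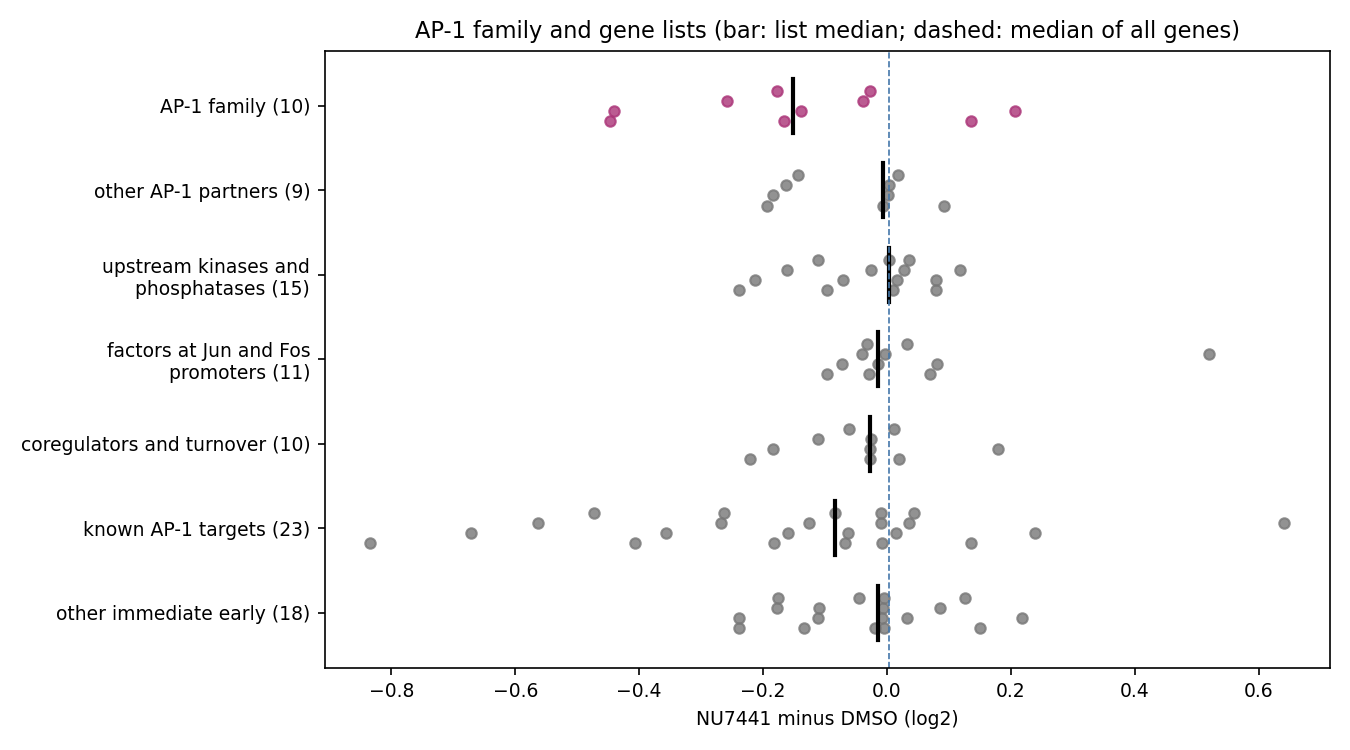
Log2 difference NU7441 minus DMSO (x axis) of the measured genes of the AP-1 family and of 6 lists, with 1 point per gene, a bar at the list's median and a dashed line at the median of all genes. The family's median is -0.15, that of the AP-1 targets -0.08, and those of the other 5 lists lie between -0.03 and 0.00.

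Among 6570 genes whose SD over the 6 arrays was at least 0.5 of that of Jun, the pattern most like Jun was sought by Pearson correlation over the 6 arrays. With 6 arrays and this many genes, high values are found in any case, and the arrays share the group difference. The most alike were Map6 (0.992), a microtubule-stabilising protein, Ddah1 (0.988), Dusp3 (0.986), a phosphatase of MAP kinases, Mgarp (0.976) and Chml (0.974). Dusp3 gave 8.87, 8.84 and 8.73 in DMSO and 8.57, 8.46 and 8.40 with NU7441, which differ by -0.34 (SE 0.08, adjusted p = 0.619 in limma). Most opposite were Basp1 (-0.989), Wscd2 (-0.987) and Cacng5 (-0.987). Within the family, the correlation with Jun over the 6 arrays was highest for Fosl2, at 0.807, and lowest for Batf, at -0.631. It was 0.488 for Jund, 0.449 for Fosb, 0.430 for Atf3, 0.369 for Maff, 0.207 for Fos, -0.140 for Junb and -0.524 for Batf3.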

How the data were processed

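The deposited table gives, for each array, the authors' log2 values of 41345 probe sets. That the scale is log2 follows from the range of the values, and the authors' background correction and normalization are unknown here. RNA was column-purified and prepared as Affymetrix specifies, per the labels' protocols. The values were used as deposited, and 0 columns belonged to other samples. The platform annotation gave 23521 probe sets 1 symbol, 1814 several and 16010 none here, and 23328 matched RefSeq by Entrez number. Per gene the probe set with the highest mean was kept (22180 genes).

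The test was limma 3.58.1 in R 4.3.3 (lmFit, eBayes, group as only term, two-sided, Benjamini-Hochberg over all genes, threshold 0.05), tried on simulated data. Plots used matplotlib 3.10.9 and Python 3.11.15. The members and lists were chosen with earlier results of these data known. Named were all members, Prkdc and Naca, up to 3 genes per pathway list by smallest p, and the 5 genes most like and 3 most opposite to Jun, with predicted, small RNA, immunoglobulin and olfactory receptor genes passed over. Fabp4, Cd68, Dusp16, Hmox1, Il6, Tgfb1, Mmp13, Bglap and Mef2c were named after their values were seen.

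Same-numbered samples were taken as pairs in the replicate block, the sign-flip test and the within-number differences, but not in the main fit. The ground was that their deviations from the group means correlated at 0.149, 0.169 and 0.339 over genes. Each of the 6 arrays was nearest its own number. This pairing is in no label and was read from these same values. Alternatives were the replicate block, an intensity trend with robust prior, both together, quantile normalization or median centring, leaving out dim genes, averaging probe sets per gene, testing every probe set, weighting arrays and leaving out single arrays.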

Additional observations from a re-analysis of the deposited data

How the results depend on the processing

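Limma called 0 genes under 15 of the 16 alternatives. The replicate block with intensity trend and robust prior called 100, Jun among them at -0.45 (adjusted p = 0.0291). The replicate block alone left Jun at -0.45 with an adjusted p of 0.396 and changed no other call. Leaving out each array gave 0 called genes (0 to 0) and Jun between -0.51 and -0.40. Of 142 values of the other 9 members under the alternatives, 139 kept direction and call and 3 turned. Many of the 142 could not turn, since block, trend, robust prior, leaving out dim genes and testing every probe set leave a difference unchanged. Averaging probe sets could change that of Jund only. Leaving out 1 array moved Junb between -0.13 and 0.075 and Fos between -0.19 and 0.14. The difference of Jun minus that of Atf3 ran from -0.20 to 0.34. Batf and Batf3 fell outside the brighter 50 percent of genes, so that filter gave them no value. The number of arrays, and unknown signal over background for dim genes, limit these results.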
